A study of Homo sapiens with 12 samples.

Results

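ΔCRE cells at 24 h of PMA/Ionomycin were compared with ΔCRE cells at 6 h, to describe how gene expression moved between the early and the late response once part of the ETS1 promoter was missing. The cells were MDA-MB-231, a human triple-negative breast cancer line, and ΔCRE stands for the genotype labelled KO, in which Cas9 and a pair of guide RNAs had removed the stretch of the core regulatory element (CRE) upstream of ETS1 that holds NFAT and NF-κB binding sites. The members were the 4 ΔCRE libraries taken at 6 h and 24 h (2 replicates each) of 12 libraries in the series, and 11156 of 24331 features, those that averaged 1 FPKM or more across the 4 libraries, were tested. WT libraries at the same time points, unedited and given the same stimulus, served for comparison, and the 0 h libraries were unstimulated. Edited cells came from screened clones, and the number of clones behind the libraries is not given in the sources used here, so effects of the deletion and of a clone cannot be told apart.

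PMA, a phorbol ester, activates protein kinase C, and Ionomycin, a calcium ionophore, activates the phosphatase calcineurin. Downstream, NF-κB, NFAT and AP-1 (dimers of FOS and JUN family proteins) switch on cytokine, chemokine and protease genes, and many of their targets encode inhibitors that end the response. ETS1 is a transcription factor of the ETS family that binds GGAA cores, often beside AP-1 sites, and is known in breast cancer for its link to invasion and to protease genes.

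FPKM (fragments per kilobase of transcript, scaled to the mapped fragments of a library) is a level per length, and changes are given as the log2 difference of FPKM + 1 between 24 h and 6 h with its standard error (SE), a scale on which changes at low FPKM come out too small. The sum of FPKM was 651080 and 623644 in the 6 h libraries and 609038 and 580251 in the 24 h libraries. FPKM keeps no fragment count, but steps among low values put the depth of the other 3 libraries at 1.123, 1.416 and 1.634 times that of 6 h replicate 1, the 24 h libraries being the deeper ones; the part of depth in the results was not tested. Replicates correlated at a Pearson's r of 0.977 at both times across genes, which are not independent replicates. ΔCRE libraries of different times correlated at 0.947 to 0.954. ΔCRE and WT libraries of the same time correlated at 0.976 to 0.981, as closely as the ΔCRE replicates. All 10 markers of basal B cells passed the filter (2 higher and 7 lower at 24 h), VIM being at 2540 and 2450 FPKM at 6 h and 1800 and 1730 at 24 h, whereas ESR1, PGR and CDH1, which mark luminal or epithelial cells, were listed at 0 in all 4 libraries and no leukocyte marker (8 listed) passed the filter. Other luminal markers were expressed, and of that list 5 of 10 were tested, 1 higher and 1 lower. The higher one was KRT19 (34.1 and 32.5 to 82.8 and 70.9 FPKM). The luminal list summed to 149 and 148 FPKM at 6 h and to 171 and 155 at 24 h. Of the gut epithelium list 1 of 13 was tested and not called. Of the fibroblast list 2 of 8 were tested, of which PDGFRB was higher (0.762 and 0.767 to 1.89 and 1.91 FPKM). The library labelled ΔCRE 0 h replicate 1 stood apart, with a summed FPKM of 1423335 and 38.7% of it on ribosomal protein genes against 22.0% to 24.3% in the others, and it entered no test below unless named.

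Between 6 h and 24 h, 5049 features changed at an adjusted p under 0.05, 2233 of them higher (20.0% of those tested) and 2816 lower (25.2%) at 24 h. A change of at least 2-fold was seen in 214 higher (1.92%) and 149 lower features (1.34%). The median over all features was -0.03. The direction of the balance rested on the scaling: 44.2% of called features were higher in FPKM, against 60.5% (2852 higher and 1859 lower) when each library was rescaled to the same sum (TPM), and the list counts below are read with that in mind. A list with shares close to 20.0% higher and 25.2% lower, such as the BCL2 family and MHC class I lists, moved no more often than the tested features at large. Entries for small nucleolar RNAs and microRNAs lying inside host genes were few (122 tested), but made up 6 of the 15 features higher and 6 of the 25 lower by at least 4-fold. Of these features, 6 of the 15 and 5 of the 25 were listed at 0 in both libraries of 1 time point.

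**Figure D1:**
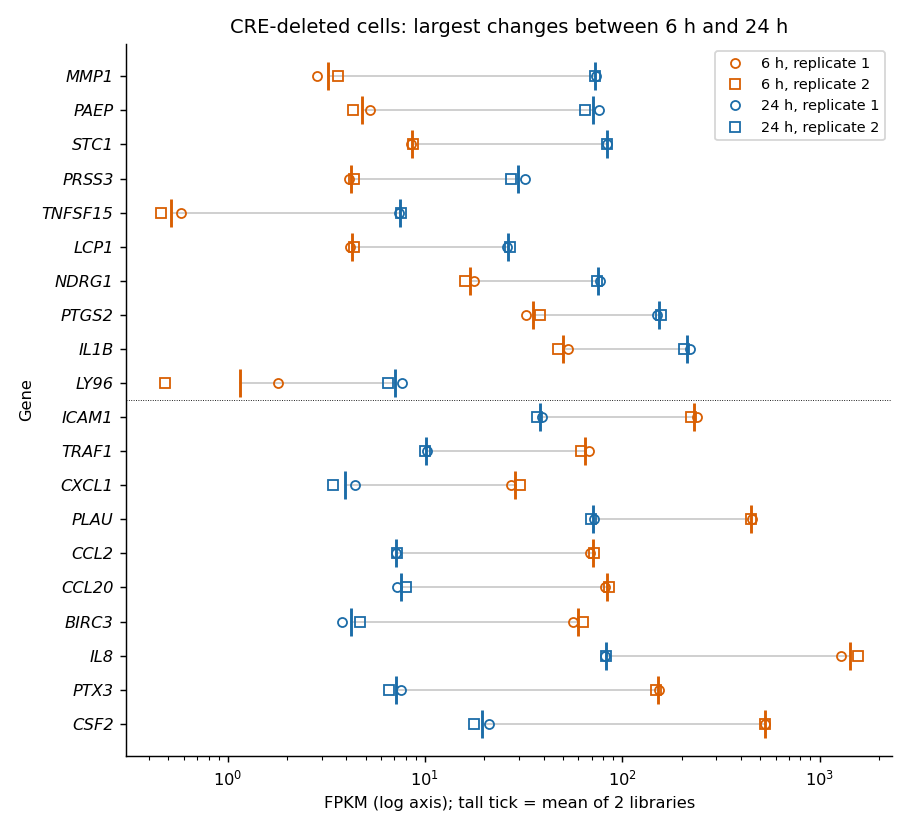
FPKM (log axis) of the 10 genes with the highest and the 10 with the lowest log2 change in ΔCRE cells, with orange marks for 6 h and blue marks for 24 h, circles for replicate 1, squares for replicate 2 and tall ticks for the mean. The 24 h marks of the upper 10 genes lie to the right of their 6 h marks and those of the lower 10 to the left, from MMP1 (mean 3.24 to 73.0 FPKM) to CSF2 (528 to 19.5).

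Cytokine and chemokine genes were among those with the steepest declines. CSF2, the growth factor GM-CSF, was at 527 and 529 FPKM at 6 h and at 21.2 and 17.8 at 24 h, which left 3.69% of the 6 h mean (log2 change -4.69, SE 0.09, adjusted p = 4.8e-07). IL8, a neutrophil chemokine, went from 1290 and 1560 FPKM to 81.8 and 82.7 (-4.09, SE 0.10). The chemokines CCL20 (81.9 and 85.4 to 7.19 and 7.98), CCL2 (69.0 and 72.3 to 7.11 and 7.18) and CXCL1 (27.2 and 30.2 to 4.40 and 3.43) fell by 3.30, 3.14 and 2.60 on the log2 scale. For none of these genes did libraries of the 2 time points overlap, which was a condition for naming them. The same held for 8333 of the 11156 tested features (74.7%). Of the 20 cytokines and chemokines tested out of 26 listed, 14 were lower and 5 higher, with a median of -0.77. In bulk RNA, fewer cells of a type and less RNA per cell cannot be told apart.

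CSF1, the macrophage growth factor, and IL11, LIF and IL6, cytokines of the gp130 receptor family, were among the 14 lower members. IL11 went from 491 and 502 FPKM to 180 and 164, LIF from 172 and 163 to 85.4 and 82.7, and IL6 from 13.6 in both libraries to 5.22 and 4.48. The interleukin 1 genes IL1B and IL1A rose, while IL18 of the same family fell from 15.2 and 16.6 to 12.9 and 13.3 FPKM (-0.26, adjusted p = 0.0347). IL1B was at 52.8 and 47.1 FPKM at 6 h and 220 and 206 at 24 h (2.07, SE 0.08, adjusted p = 1.1e-05), and IL1A rose from 0.711 and 0.456 to 2.05 and 1.57 (0.83). CCL26 also rose (1.06, SE 0.25), but its replicates were spread, at 1.86 and 0.916 and then 2.89 and 5.14 FPKM. PTX3, a secreted pattern recognition protein outside the list, dropped from 153 and 149 FPKM to 7.60 and 6.61 (-4.23).

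All 16 tested members of the NF-κB list (18 listed: subunits, inhibitors and adaptors) were lower at 24 h, 8 of them by at least 2-fold, with a median of -0.99; with TPM scaling 14 and with quantile normalization 13 were lower and none higher. The largest declines were of proteins that restrain or transmit the signal. BIRC3, a ubiquitin ligase that acts on NF-κB signalling, was at 56.6 and 63.0 FPKM and then at 3.79 and 4.68 (-3.54, SE 0.10, adjusted p = 3e-06). TRAF1, an adaptor of TNF receptors, went from 68.1 and 62.1 to 10.3 and 9.97 (-2.57), and TNFAIP3, the inhibitor A20, from 16.6 and 17.0 to 2.73 and 2.70 (-2.26). NFKBIA, which holds NF-κB in the cytoplasm, was at 194 and 192 FPKM and then at 71.5 and 68.7 (-1.45). Among the subunits NFKB1 fell from 42.7 and 42.2 to 17.5 and 18.0 (-1.21), NFKB2 and RELB fell by 1.13 and 1.16, and RELA, the main activating subunit, from 50.6 and 49.5 to 42.5 and 37.6 (-0.32, adjusted p = 0.0174). The other 8 inhibitors and adaptors fell by 0.32 to 1.05. ICAM1, an adhesion molecule that leukocytes bind, outside the list, was at 238 and 222 FPKM and then at 39.1 and 37.1.

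The promoters of IL8 and TNFAIP3 are shown because they hold the letters of an AP-1 and an NF-κB site (RefSeq, GRCh38.p14, 250 bases before to 50 after the start, 5′ to 3′ on the gene's strand, which is + in both). In IL8 (chr4:73740319-73740618) the capitals mark an AP-1 match in reverse complement that begins 137 bases before the start, and in TNFAIP3 (chr6:137867009-137867308) an NF-κB match in reverse complement that begins 66 bases before it.
IL8: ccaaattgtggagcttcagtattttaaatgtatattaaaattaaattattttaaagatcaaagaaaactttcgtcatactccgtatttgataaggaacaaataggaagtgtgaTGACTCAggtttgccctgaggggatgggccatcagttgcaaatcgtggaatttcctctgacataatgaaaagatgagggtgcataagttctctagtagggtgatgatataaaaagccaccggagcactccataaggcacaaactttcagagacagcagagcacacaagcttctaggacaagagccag
TNFAIP3: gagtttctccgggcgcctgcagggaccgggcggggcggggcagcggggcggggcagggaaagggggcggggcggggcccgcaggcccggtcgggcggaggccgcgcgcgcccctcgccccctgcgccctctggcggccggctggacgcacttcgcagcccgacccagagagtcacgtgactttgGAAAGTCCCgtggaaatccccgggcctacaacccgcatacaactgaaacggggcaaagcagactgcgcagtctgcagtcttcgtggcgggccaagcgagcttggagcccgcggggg
The AP-1 letters TGAGTCA, searched on both strands, were in 4 of 19 matched cytokine promoters (21.1%) and in 4.92% of all 27305 promoters of this length. They were in 2 of 9 matched members that fell (IL8 and IL11), in 1 of 5 that rose (IL1A) and in CXCL11, which was below the filter. The NF-κB letters GGGACTTTC were in 1 of 16 promoters of the NF-κB list (6.25%), in none of 19 cytokine promoters and in 0.366% of all. These are matches of letters within 300 bases, and a missing match says only that the letters are not in this window.

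ETS1 (hg19, chromosome 11, 128328656 to 128457453) was at 62.8 and 62.2 FPKM at 6 h and at 29.3 and 30.7 at 24 h in ΔCRE cells. The 24 h level was thus 47.9% of the 6 h level (-1.04, SE 0.07, adjusted p = 8.3e-05), and both lay above the 16.5 FPKM of ΔCRE 0 h replicate 2. In WT cells the levels were 139 and 145 at 6 h and 36.2 and 39.7 at 24 h (-1.88), so that the ΔCRE libraries lay far below the WT libraries at 6 h and close below them at 24 h. The decline was smaller in ΔCRE cells by 0.84 (SE 0.09, adjusted p = 0.0278 for the difference). Of the 16 tested ETS family genes of 24 listed, 4 were higher and 6 lower. ETS2, the closest relative of ETS1, went from 12.1 and 12 FPKM to 6.89 and 6.86 (-0.73), and ELF4 from 26.5 and 23.2 to 16.8 and 14.8 (-0.62). ETV1 rose from 4.09 and 3.87 to 10.3 and 9.67 (1.14, SE 0.09), ETV6, a repressor, rose by 0.49 and ELF1 by 0.31. ELK3, at 28.1 and 26.5 FPKM at both times, did not pass the test, and FLI1 was at most 0.0589 FPKM.

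A list of 7 of the genes that the study's text names holds ETS1, whose promoter was edited. The others were named by its authors with a comparison of the genotypes on these libraries, so the counts are not independent evidence. For ENG and MMP14 the paper also reported ETS1 enrichment at both promoters by chromatin immunoprecipitation, and correlations with ETS1 levels in tumours and cell lines. Of 7, 4 were higher and 2 lower. ADAM8, a membrane metalloprotease, rose from 4.95 and 4.97 FPKM to 15.5 and 13.5 (1.38), MMP14, a membrane collagenase, from 29.7 and 29.8 to 72.7 and 66.5 (1.20), PIK3CG from 0.781 and 0.562 to 1.99 and 2.04 (0.85), and ENG, a TGF-β co-receptor, from 9.32 and 8.76 to 13.5 and 13.4 (0.52). ADAM15 (45.0 and 40.7 to 33.7 and 30.8, -0.40) and ETS1 fell. NRP2, below the filter, was at 0.563 and 0.375 FPKM at 6 h and 1.19 and 1.28 at 24 h. MMP14 and ENG also rose in WT cells, by 0.90 and 0.31. Their WT levels at 6 h were higher, at 66.6 and 62.6 FPKM for MMP14 and 20.8 and 19.5 for ENG. The other tested genes of the list kept their direction in WT cells too.

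Among the genes that rose most, MMP1, the interstitial collagenase, led with 2.84 and 3.64 FPKM at 6 h and 73.4 and 72.7 at 24 h, a 22.6-fold rise of the mean (4.13, SE 0.10, adjusted p = 1.1e-06). PAEP, a secreted lipocalin, rose 14.7-fold (5.29 and 4.31 to 76.5 and 65.0 FPKM), and STC1, a secreted glycoprotein hormone, 9.72-fold (8.50 and 8.71 to 83.6 and 83.7). PRSS3, a trypsinogen, was at 4.12 and 4.35 and then 32.1 and 27.3 FPKM, and TNFSF15, a TNF family cytokine, at 0.578 and 0.460 and then 7.43 and 7.58. LCP1, an actin-bundling protein, rose 6.21-fold (4.16 and 4.38 to 26.1 and 26.9). PTGS2, the cyclooxygenase of inflammation, went from 32.5 and 38.3 to 150 and 157 FPKM (2.09). LY96, a partner of Toll-like receptor 4, was the least even of these genes, at 1.81 and 0.482 FPKM at 6 h and 7.66 and 6.50 at 24 h (SE 0.27).

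Proteases and their inhibitors split. Of the 10 tested members of the metalloproteinase list (20 listed), 5 were higher and 2 lower. TIMP1, an inhibitor of metalloproteinases, rose from 190 and 177 FPKM to 492 and 434 (1.33), while TIMP3, an inhibitor bound to matrix, fell from 48.7 and 48.4 to 14.7 and 15.3 (-1.63) and the collagenase MMP13 from 2.56 and 3.62 to 1.15 and 1.09 (-0.93). MMP3, which the files place on the same locus as MMP1 but list separately, was under the filter with 0.475 and 0.549 and then 0.268 and 0.319 FPKM. In the plasminogen list 5 of 9 tested members were lower and 2 higher. PLAU, the urokinase activator of plasminogen, went from 457 and 447 FPKM to 71.7 and 69.7, or 15.7% of the 6 h mean (-2.66, SE 0.07, adjusted p = 1.3e-06). MMP1 and PLAU, both genes of matrix breakdown, therefore moved in opposite directions.

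Matrix genes showed a similar split, with 12 of 21 tested members lower and 4 higher (median -0.35). The collagen IV chains COL4A1 (mean 35.3 to 9.98 FPKM, -1.73) and COL4A2 (66.2 and 62.2 to 29.4 and 27.8, -1.14) fell, as did THBS1 (-1.45) and COL6A1 (-1.25). LAMB1, a laminin chain, rose from 10.6 and 10.2 to 32.9 and 32.2 (1.56) and FN1, fibronectin, from 76.2 and 68.2 to 190 and 191 (1.39). Of 12 integrin subunits tested, 6 were higher, led by ITGB5 (27.6 and 26.4 to 51 and 47.1, 0.84), ITGA6 (0.65) and ITGB3 (0.62), and 3 were lower, a count that dropped to 1 with either scaling (ITGAV at -0.30 and ITGA3 at -0.26 were no longer called). ITGB4 fell from 9.17 and 8.28 to 5.06 and 4.71 FPKM (-0.72).

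Of 21 tested immediate early transcription factors (26 listed), 14 were lower and 4 higher, with a median of -0.37. FOSL1, an AP-1 subunit, went from 451 and 436 FPKM to 151 and 137 (-1.62, SE 0.08, adjusted p = 2.3e-05), MYC from 38.5 and 37.0 to 15.2 and 13.7 (-1.32) and KLF6 from 86.0 and 93.2 to 41.9 and 44.5 (-1.03). FOS was low at both times, between 2.25 and 3.01 FPKM, with a change of -0.14 that did not pass the test. IER3, a survival gene, rose from 568 and 572 to 953 and 884 (0.69), and NR4A1 and CSRNP1 by 0.41 and 0.44.

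The feedback inhibitors of MAP kinases held both directions, 7 of 15 lower and 5 higher. DUSP1, a phosphatase of p38 and JNK, went from 40.1 and 38.3 FPKM to 18.4 and 16.1 (-1.14), whereas the ERK phosphatases DUSP6 (66.5 in both to 117 and 114, 0.79) and DUSP4 (48.3 and 46.2 to 68.6 and 68.0, 0.52) and the EGF receptor inhibitor ERRFI1 (303 and 306 to 431 and 442, 0.52) rose. Of 8 tested members of the protein kinase C and D list, 4 were lower and 2 higher, and with TPM scaling 3 and 3. The lower ones include PRKCZ (-0.61) and PRKCI (-0.43), atypical isoforms that phorbol esters do not activate. PRKCA, a classical isoform, went from 26.7 and 24.1 to 13.4 and 13.7 (-0.86) and PRKCD from 45.9 and 41.8 to 30.7 and 28.2 (-0.56). PRKCH, an isoform that needs no calcium, rose from 1.08 and 1.38 to 2.59 and 3.12 (0.79). In the calcineurin and NFAT list 6 of 11 were lower and 1 higher: the subunits PPP3CC (-0.77) and PPP3R1 (-0.59) and the inhibitor RCAN1 (15.6 and 14.8 to 9.46 and 9.09, -0.66) fell, and PPP3CB rose (0.42). No NFAT transcription factor passed the test, NFATC2 being at 2.61 and 2.50 and then 2.19 and 2.66 FPKM. Of 7 tested EGF family members, NRG1 (92.0 and 91.4 to 46.7 and 44.0), HBEGF (117 and 120 to 62.4 and 57.9), EREG (82.1 and 101 to 49.4 and 48.2) and the receptor EGFR (34.7 and 29.6 to 18.3 and 19.3) fell, and ERBB2 rose (0.46).

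Targets of YAP and TEAD, which respond to cell shape and contact, were lower in 12 of 17 cases (8 by at least 2-fold) and higher in 2. F3, tissue factor, went from 187 and 205 FPKM to 44.7 and 45.3 (-2.10), ANKRD1 from 170 and 184 to 65.7 and 64.3 (-1.43), TGFB2 from 12.5 and 13.8 to 4.24 and 4.38 (-1.41) and CYR61 from 411 and 420 to 210 and 197 (-1.03). CTGF, the relative of CYR61, rose instead, from 50.3 and 58.0 to 89.7 and 89.3 (0.72). YAP1 changed by -0.01 and WWTR1 by 0.10, neither of which passed the test. In the actin list 10 of 20 were lower and 4 higher, from TAGLN (7.52 and 5.76 to 1.48 and 1.5, -1.61) to TPM2 (0.80), and SRF itself rose by 0.68. With quantile normalization 6 of these were lower and 7 higher.

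In the list on epithelial-mesenchymal transition 11 of 17 were lower and 5 higher. The mesenchymal filament VIM fell by 0.50 and the epithelial keratins KRT8 and KRT18 by 0.71 and 0.58, whereas KRT19 rose from 34.1 and 32.5 FPKM to 82.8 and 70.9 (1.18). The transcription factors ZEB2 (-0.78), SNAI2 (-0.39) and ZEB1 (-0.26) fell and SNAI1 rose from 2.31 and 2.28 to 3.44 and 3.42 (0.43). TGFBR2, the type II TGF-β receptor, rose from 17.2 and 18.0 to 41.8 and 43.2 (1.22) and TGFBR1 fell by 0.41. Epithelial genes were thus found in both directions, and so were mesenchymal ones.

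Most genes of the replication and mitosis lists were lower at 24 h. Of 40 DNA replication genes 30 were lower and 2 higher (median -0.49), and of 36 mitosis genes 28 were lower and 1 higher (median -0.49); with TPM scaling 27 and 21 were lower. RRM2, the inducible subunit of ribonucleotide reductase, went from 150 and 157 FPKM to 64.8 and 65.4 (-1.22, SE 0.07, adjusted p = 4.2e-05), TYMS, thymidylate synthase, from 77.4 and 78.9 to 41.0 and 38.0 (-0.97), and PCNA, the sliding clamp, from 142 in both to 94.2 and 108 (-0.49). The 2 replication genes that rose, PRIM1 (0.39) and POLA2 (0.37), both encode subunits of the DNA polymerase alpha and primase complex. UBE2C, a ubiquitin-conjugating enzyme of mitotic exit, went from 599 and 579 to 270 and 238 (-1.21), CCNA2, cyclin A, from 24.3 and 24.5 to 12.6 and 12.8 (-0.89) and PLK1, a mitotic kinase, from 84.7 and 77.7 to 52.1 and 46.4 (-0.71). CDC25C rose from 13.0 and 13.4 to 20.6 and 18.4 (0.52). Of 18 tested genes of G1, 9 were lower and 3 higher: CDK6 (18.8 and 21.2 to 6.41 and 7.06, -1.44) and CCND1, cyclin D1 (153 and 167 to 69.6 and 69.7, -1.19), which drive the cycle, and CDKN1A (108 and 102 to 48.2 and 45.7, -1.15), which stops it, all fell.

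Replication and mitosis promoters are known for E2F sites and for the cell cycle genes homology region (CHR) with CCAAT boxes, and an example of each is shown (RefSeq, GRCh38.p14, same window). In PCNA (chr20:5126573-5126872, - strand) the capitals mark an E2F match in reverse complement that begins 59 bases before the start, and in PLK1 (chr16:23678639-23678938, + strand) a CCAAT box from 73 and a CHR from 29 bases before it.
PCNA: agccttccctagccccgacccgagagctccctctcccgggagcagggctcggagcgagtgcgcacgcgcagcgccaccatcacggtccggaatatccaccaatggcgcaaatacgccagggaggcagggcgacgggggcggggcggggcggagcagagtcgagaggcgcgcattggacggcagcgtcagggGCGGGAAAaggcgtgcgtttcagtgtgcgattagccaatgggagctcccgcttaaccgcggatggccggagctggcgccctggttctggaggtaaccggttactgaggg
PLK1: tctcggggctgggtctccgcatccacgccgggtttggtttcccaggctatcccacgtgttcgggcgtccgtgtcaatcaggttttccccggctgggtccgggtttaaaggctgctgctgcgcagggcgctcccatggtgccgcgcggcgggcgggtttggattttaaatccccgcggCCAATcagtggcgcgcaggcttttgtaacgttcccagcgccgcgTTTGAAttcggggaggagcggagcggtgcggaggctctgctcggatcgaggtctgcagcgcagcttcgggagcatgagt
The E2F letters TTTCCCGC were in 11 of 34 matched replication promoters (32.4%) and in 1.66% of all promoters, and TTTGGCGC in 6 of 34 (17.6%) and in 0.659% of all. Of the 26 matched genes that were lower at 24 h, 11 held TTTCCCGC and 4 held TTTGGCGC, so that the former letters were found in lower genes in all 11 cases and the latter in 4 of 6. The CHR letters TTTGAA were in 20 of 30 matched mitosis promoters (66.7%) and in 15.4% of all, and CCAAT in 23 (76.7%) and in 35.7% of all. Of 22 matched mitosis genes that were lower, 16 held the CHR letters and 18 held CCAAT. Both strands were searched, and none of the 4 sets of letters holds another.

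The MYC and ribosome biogenesis list was lower in 24 of 28 members and higher in none (median -0.58), with 23 and 22 lower with TPM scaling and quantile normalization. NCL, nucleolin, went from 1070 and 1020 FPKM to 565 and 570 (-0.88), NOLC1 from 136 and 133 to 65.8 and 64.1 (-1.04) and ODC1, the enzyme that starts polyamine synthesis, from 363 and 344 to 175 and 182 (-0.98). Protein folding genes of the endoplasmic reticulum were lower in 18 of 21 and higher in none (median -0.45), though 1 and 2 members were called higher with TPM scaling and quantile normalization. HSPA5, the chaperone BiP, went from 1270 and 1220 FPKM to 400 and 405, or 32.2% of the 6 h mean (-1.63, SE 0.07, adjusted p = 1.8e-05), and HERPUD1 from 90.2 and 88.3 to 42.9 and 43.7 (-1.03). At 0 h HSPA5 was at 274 FPKM in ΔCRE replicate 2.

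The ATF4 list, which serves amino acid supply, had 16 of 32 members higher and 10 lower. The 4 amino acid transporters of the list fell: SLC7A5 went from 134 and 123 FPKM to 56.1 and 53.2 (-1.22), SLC3A2 fell by 0.65, SLC7A1 by 0.70 and SLC7A11 by 0.39. ASNS, asparagine synthetase, rose from 29.2 and 28.5 to 45.6 and 48.3 (0.68), and PSPH, of serine synthesis, by 0.60. Of 12 tRNA synthetases 8 rose, 1 fell and 3 did not pass the test, with AARS going from 59.0 and 53.4 to 79.0 and 76.7 (0.46) and NARS from 43.9 and 41.8 to 58.3 and 56.7 (0.42), while WARS fell by 0.22. The stress regulator DDIT3 (CHOP) fell from 84.8 and 84.2 to 42.6 and 40.9 (-1.0), and CHAC1, an enzyme that degrades glutathione, rose from 5.84 and 6.29 to 11.8 and 10.6 (0.78). ATF4 itself changed by 0.20, which did not pass the test (adjusted p = 0.101). The CHAC1 promoter (chr15:40953221-40953520, GRCh38.p14, + strand, RefSeq) is shown for the amino acid response element in capitals, which begins 209 bases before the start.
CHAC1: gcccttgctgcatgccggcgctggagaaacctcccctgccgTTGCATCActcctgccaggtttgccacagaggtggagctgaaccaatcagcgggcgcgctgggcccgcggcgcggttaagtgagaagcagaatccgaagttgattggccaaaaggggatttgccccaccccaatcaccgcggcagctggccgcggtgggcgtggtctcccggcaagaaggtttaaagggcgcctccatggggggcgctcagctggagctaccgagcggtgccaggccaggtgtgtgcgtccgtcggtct
The letters TTGCATCA were in 7 of 27 matched promoters of the list (25.9%) and in 0.923% of all. They were in 5 of 13 matched members that rose (CHAC1, AARS, CARS, MARS and NARS), in 0 of 9 that fell, and in IARS (-0.09) and TARS (0.08), which did not pass the test. In the other lists searched, AP-1 letters were in 1 of 9 metalloproteinase promoters (11.1%) and 2 of 10 plasminogen promoters (20.0%), and the sterol element TCACCCCAC in 1 of 25 promoters of sterol and fatty acid synthesis (SREBF2), against 0.425% of all. Among 20 immediate early promoters the cAMP element TGACGTCA was in 2 (1.98% of all) and the CArG box CCATATTAG in 1 (EGR1, 0.0952% of all), and no promoter of the 20 in the actin list held the latter.

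Sterol and fatty acid synthesis went up as a group: 25 of 31 tested genes were higher and none lower (median 0.57, with 26 and 27 higher under the other scalings). MSMO1, a sterol oxidase, rose from 19.0 and 25.4 FPKM to 46.1 and 52.2 (1.12), MVK, mevalonate kinase, from 17.2 and 18.1 to 39.4 and 36.2 (1.06) and FDFT1, squalene synthase, from 60.1 and 61.6 to 128 and 122 (1.02). The fatty acid enzymes FASN (0.04), ACACA (0.11) and ACLY (-0.05) did not pass the test. SCD (0.56) and FADS2 (0.58), which desaturate fatty acids, and ELOVL6 (0.61), which elongates them, rose.

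Of 30 genes of glycolysis and the hypoxia response, 16 were higher (8 by at least 2-fold) and 2 lower. NDRG1 rose from 17.8 and 16.0 FPKM to 77.0 and 74.2 (2.10), ALDOC, an aldolase, from 22.9 and 21.5 to 92.4 and 85.9 (1.96), EGLN3, an oxygen sensor, from 1.29 and 1.15 to 4.39 and 5.72 (1.44), BNIP3 from 24.6 and 25.6 to 70.7 and 62.4 (1.37) and VEGFA from 22.1 and 21.9 to 49.0 and 46.0 (1.08). GAPDH was between 5490 and 6090 FPKM in the 4 libraries and did not pass the test, and HIF1A changed by 0.17 and SLC2A1 by -0.03 without passing the test. HK2 fell from 27.0 and 24.9 to 18.2 and 18.6 (-0.47) and PKM by 0.26. Lysosomal genes were higher in 13 of 29 and lower in 1, with NEU1 (18.8 and 17.5 to 46.4 and 45.2, 1.29), TPP1 (0.84) and CTSB (0.71) in front, and SQSTM1, an autophagy receptor, falling from 639 and 630 to 472 and 430 (-0.49).

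Interferon-stimulated genes, an antiviral programme, were higher in 15 of 23 tested (30 listed) and lower in 1, with a median of 0.56. ISG20 rose from 5.36 and 3.51 FPKM to 18.1 and 16.6 (1.78), IFI44 from 3.04 and 3.33 to 10.7 and 11.1 (1.51), IRF9, a subunit of the complex that reads interferon signals, from 9.98 and 9.35 to 24.9 and 24.8 (1.28) and MX1 from 2.08 and 2.88 to 6.16 and 5.64 (1.0). ISG15 (0.22) did not pass the test. IRF1, which NF-κB also drives, was the member that fell, from 11.8 and 10.3 to 5.92 and 6.2 (-0.77).

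Some groups moved little, in both directions, or in a direction that rested on the scaling. Oxidative phosphorylation subunits were called in 5 of 33 cases, 2 higher and 3 lower (median -0.01), all within 0.44 of zero, and with TPM scaling and quantile normalization 8 and 10 were higher, so no direction is given. The MHC class I list had 4 higher and 3 lower of 16, with 6 and 7 higher under those scalings and 1 lower under each. Among 20 antioxidant targets of NRF2 8 were lower and 1 higher, against 5 lower and 4 higher with TPM scaling, and TXNRD1 (214 and 207 to 104 and 106 FPKM, -0.99) and HMOX1 (42.2 and 38.3 to 25.1 and 23.0, -0.72) fell most. In the BCL2 family 4 of 14 were lower and 3 higher: of the BH3-only killers PMAIP1 fell from 17.4 and 20.5 to 6.63 and 5.72 (-1.47) and BMF rose from 0.483 and 0.694 to 3.18 and 3.06 (1.38), and the anti-apoptotic BCL2L1 rose by 0.26 and MCL1 changed by -0.17 without passing the test.

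The course from 6 h to 24 h was mostly shared with WT cells. Across the 11105 features tested in both, the changes had a Pearson's r of 0.719, given as a description, since each point is a feature of the same 8 libraries. Of the 362 features that changed by at least 2-fold in ΔCRE cells and were also tested in WT cells, 357 had the same sign there. The 213 higher ones had a median of 1.28 in ΔCRE and 1.12 in WT cells, and the 149 lower ones -1.25 and -1.18. These features were picked by their change in ΔCRE cells alone, so the medians do not show a weaker change in WT cells. CSF2 changed by -5.06 in WT cells, MMP1 by 3.63 and HSPA5 by -1.66, none of which differed from ΔCRE cells at an adjusted p under 0.05. The differences, ΔCRE minus WT, were 0.36 (SE 0.13) for CSF2, 0.50 (SE 0.13) for MMP1 and 0.03 (SE 0.07) for HSPA5. Not passing this test does not show that the changes were equal.

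**Figure D2:**
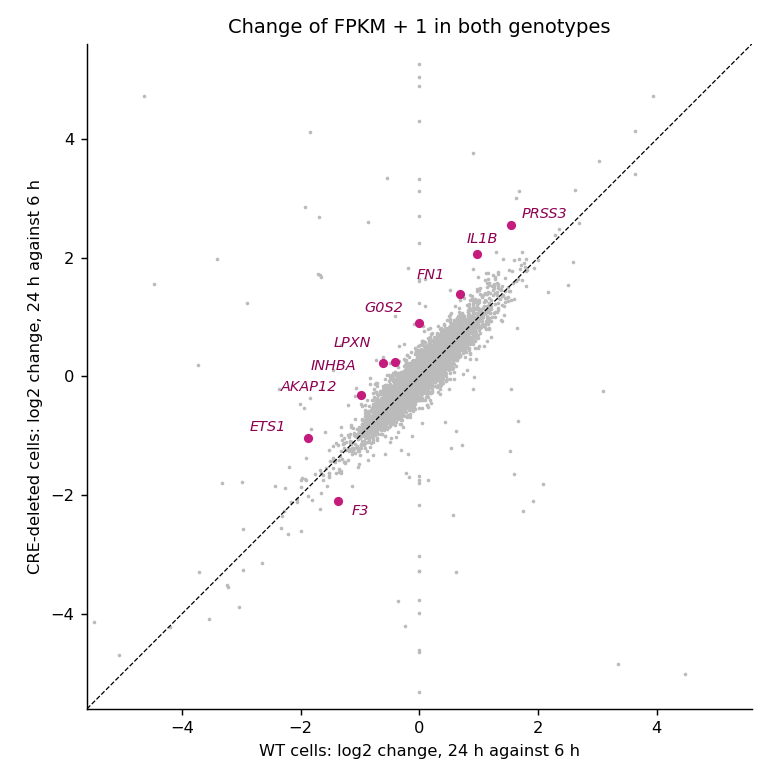
Log2 change of FPKM + 1 between 6 h and 24 h in WT cells (x axis) and in ΔCRE cells (y axis), each grey point being a feature and the dashed line equal change, with 8 features beyond the axes left out. Named in magenta are 9 genes whose change differed between the genotypes, of which F3 lies below the line and the other 8 above it.

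When the difference between the genotypes was itself tested, 13 of 11230 features (0.116%) passed, 11 with a higher and 2 with a lower change in ΔCRE cells, and 836 (7.44%) had an unadjusted p under 0.05. Of the 13, 3 were small nucleolar RNA entries. IL1B rose from a lower start, since WT cells were at 167 FPKM in both 6 h libraries and at 326 and 330 at 24 h, so its change was 2.07 in ΔCRE and 0.97 in WT cells (difference 1.10, SE 0.09, adjusted p = 0.016). PRSS3 rose by 2.55 in ΔCRE and 1.54 in WT cells (6.85 and 7.23 to 21.9 and 23.1 FPKM). G0S2, an inhibitor of lipolysis, went from 168 and 160 FPKM to 324 and 289 in ΔCRE cells and stayed at 354 and 345 and then 349 and 342 in WT cells. For ETS1, IL1B, PRSS3 and G0S2, and for LPXN and FN1 described below, the 6 h level was lower in ΔCRE than in WT cells in every library.

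INHBA, a subunit of activin, differed in direction: it was at 22.9 and 23.0 FPKM and then 28.3 and 25.9 in ΔCRE cells, and at 16.6 and 16.3 and then 10.6 and 10.3 in WT cells. LPXN, a focal adhesion protein, did so too, with 37.8 and 38.7 and then 44.3 and 47.4 in ΔCRE cells against 53.1 and 51.4 and then 38.2 and 40.0 in WT cells. FN1 reached 190 and 191 at 24 h in ΔCRE and 125 and 129 in WT cells from similar 6 h levels (77.9 and 79.2 in WT cells). AKAP12, a scaffold of protein kinase A, also started alike (28.4 and 26.9 against 27.2 and 26.6) and ended at 22.0 and 22.3 in ΔCRE and 12.8 and 13.4 in WT cells. F3 was the gene with a steeper decline in ΔCRE cells (187 and 205 to 44.7 and 45.3, against 103 and 101 to 38.6 and 38.4 in WT cells, difference -0.71, adjusted p = 0.0364). The 9 genes kept the sign of the difference in every alternative fit, but the calls depended on the setting. All 9 were called with a pseudocount of 0.1, with a filter of 5 FPKM and with a replicate block. With 11 libraries 8 were called, with TPM 7 and with quantile normalization 6. On leaving out each of the 8 libraries in turn IL1B was called in 7 fits (adjusted p = 0.0561 without WT 24 h replicate 1), G0S2 in 2, ETS1, INHBA, PRSS3, FN1 and F3 in 1 each, and AKAP12 and LPXN in 0, with adjusted p between 0.00598 and 0.21. No filter on low FPKM ended all 9 calls (adjusted p 0.0621 to 0.0838, for ETS1 0.0648), as did a fit without a trend (0.063 to 0.0865) and one of all 12 libraries.

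**Figure D3:**
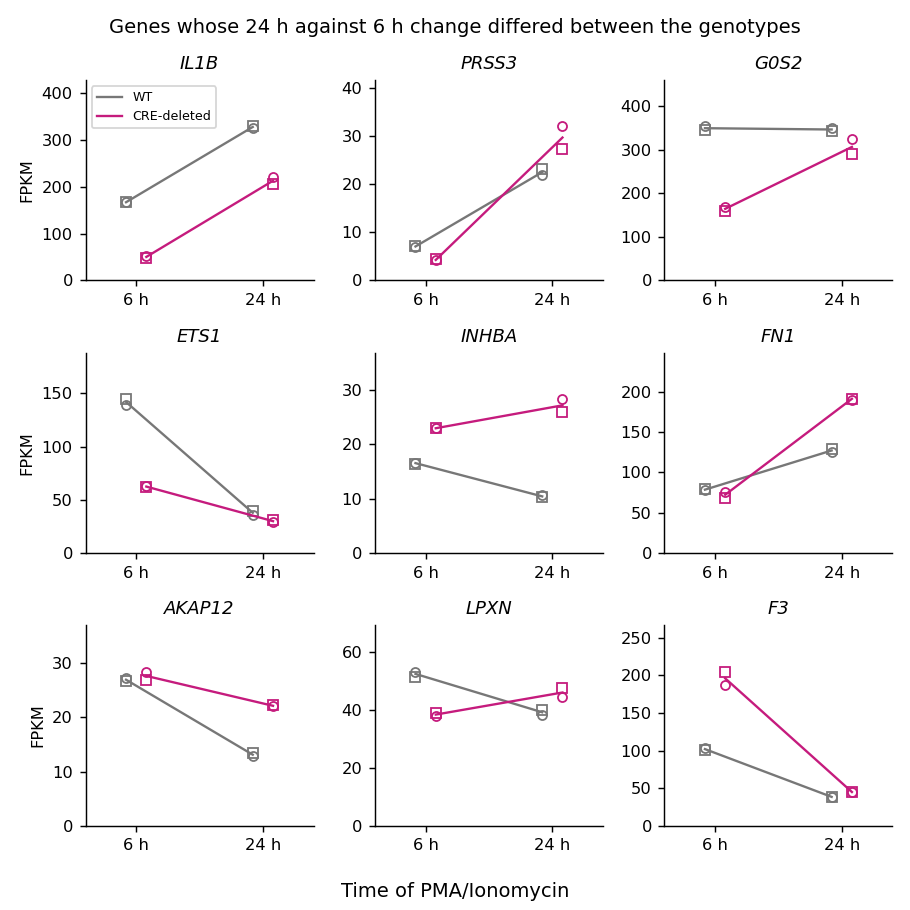
FPKM at 6 h and 24 h of 9 genes whose change differed between ΔCRE (magenta) and WT cells (grey), with circles for replicate 1, squares for replicate 2 and lines joining the means, each panel on its own axis from 0. ETS1 starts apart and ends close together, FN1 and AKAP12 start close together and end apart, and INHBA and LPXN move in opposite directions in the genotypes.

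Unstimulated levels place the late state. ΔCRE 0 h replicate 2, a lone library with no test, was nearer on the log2 scale to the 6 h than to the 24 h mean for 174 of the 214 genes that rose by at least 2-fold and for 68 of the 149 that fell. Set against the same ΔCRE means, the numbers were 144 and 146 of 214 and 65 and 59 of 149 for the unstimulated WT cells, and for the outlying ΔCRE 0 h replicate 1 they were 85 and 37. Set against the WT means instead, the mean of the WT 0 h libraries was nearer to 6 h for 175 of the 214 and 64 of the 149. In ΔCRE 0 h replicate 2, CSF2 was at 2.36 FPKM, below its 24 h level of 21.2 and 17.8. MMP1 was at 0.157 there, below its 6 h level, whereas PLAU at 247 FPKM stood above its 24 h and below its 6 h level.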

How the data were processed

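RNA was measured in 12 libraries of the MDA-MB-231 line, WT or ΔCRE (labelled KO), stimulated for 0, 6 or 24 h, with 2 biological replicates per condition. The authors made stranded mRNA libraries, used TopHat for mapping against hg19 and Cufflinks for expression estimates, and deposited 1 table of FPKM values for 24331 features. Depth per library is unknown. Samples were grouped by the genotype, time and replicate in their labels. The columns of ΔCRE 6 h and 0 h replicate 2 carry a misspelled name and were placed by the file's upper header line. Where a symbol named more than 1 feature, the most highly expressed was taken. The locus interval of a feature can hold further genes, as it does for ADAM15, TIMP1, TAGLN, CCNA2, TYMS, KRT8, SQSTM1 and TXNRD1 here, so reads of those neighbours may be shared. Replicates need not be separate clones, and p-values measure the spread between these libraries.

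From the deposited FPKM, log2(FPKM + 1) was computed and features that averaged 1 FPKM or more in the libraries of a fit entered limma (version 3.58.1, R version 4.3.3, lmFit and a trended eBayes), in the 4 ΔCRE libraries for 24 h against 6 h and in the 8 libraries of 6 h and 24 h for the difference from WT cells. All p-values in the text are two-sided, and adjusted by the Benjamini-Hochberg method over all features tested; a call is an adjusted p under 0.05. On simulated data with 200 features changed by a log2 value of 1, the 24 h against 6 h fit (11156 features) recovered 99.5% and the difference fit (11230 features) 93.5%, with 5.7% and 5.6% of calls false. The simulated noise was normal, with a common spread for features of like mean, and all changes were of the same size. In the data 5049 features were called between 6 h and 24 h, with a median absolute change of 0.46, so these rates need not hold there.

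Named genes were the 10 highest and 10 lowest called changes (no overlap between time points, mean of 5 FPKM or more at the higher time, no small RNA), up to 3 called members of each list and direction, and the 5 highest and 5 lowest called differences from WT cells, small nucleolar RNAs aside. Further list members, and genes outside the lists, were named after their values were seen. The members and the 30 gene lists and 5 marker lists were chosen with earlier results of these data known. The other settings were no filter, a filter of 5 FPKM, a pseudocount of 0.1, quantile normalization, TPM, eBayes without a trend, 8 or 12 libraries, a replicate block and leaving out each library. A fit of 11 libraries and a 2-fold rule were added after the data were seen. Cuffdiff results were not used here. Some items, 1 of the 13 differences among them, are not reported here.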

Additional observations from a re-analysis of the deposited data

Results flagged for a closer look

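The test of the difference between the genotypes singled out 13 features, of which 12 are given here, each as the change from 6 h to 24 h in ΔCRE minus that in WT cells on the log2(FPKM + 1) scale. Higher in ΔCRE cells were IL1B (1.10), PRSS3 (1.0), G0S2 (0.91), ETS1 (0.84), INHBA (0.84), FN1 (0.71), AKAP12 (0.68) and LPXN (0.66), and lower was F3 (-0.71). For the small nucleolar RNA entries SNORA80 and SNORA3 the differences of 3.55 and 3.46 came from WT 6 h libraries at 7.33 and 15.6 and at 9.71 and 10.3 FPKM, while all other libraries of this comparison were listed at 0. SNORA10 (-2.90) went from 38.6 and 52.8 to 8.67 and 7.55 FPKM in ΔCRE and from 16.8 and 26.7 to 25.8 and 38.9 in WT cells.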

How the results depend on the processing

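The counts of genes higher and lower at 24 h (2233 and 2816) became 1477 higher with a mean FPKM of at least 5, 1859 lower with TPM, 214 and 149 with a minimum change of 2-fold, and 438 and 496 with all 12 libraries. Leaving out 1 ΔCRE library gave 1250 to 1688 higher and 1726 to 1962 lower genes; the lowest count of higher genes was without 24 h replicate 1. The decline of ETS1 was -1.04 with an adjusted p of 0.163 with all 12 libraries, which hold the outlying ΔCRE 0 h library, and its adjusted p lay between 3e-06 and 0.00463 under the other alternatives.

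The counts of genes with a higher and with a lower change in ΔCRE cells relative to WT (11 and 2) became 20 and 6 with a pseudocount of 0.1, 1 and 1 without a filter, 17 and 4 with a mean FPKM of at least 5, 10 and 0 with quantile normalization, 14 and 4 with TPM, 1 and 0 without a trend, 17 and 3 with 11 libraries, and 4 and 1 with a minimum of 2-fold. With all 12 libraries limma called 0 and 0, and 59 and 25 had an unadjusted p under 0.05; lower differences at that p numbered 416 with quantile normalization and 342 without a trend. Leaving out 1 library gave 2 to 15 higher, fewest without WT 24 h replicate 1, and 0 to 12 lower, most without ΔCRE 6 h replicate 1 and none (425 at an unadjusted p under 0.05) without ΔCRE 24 h replicate 1. Apart from these counts, the median of the BCL2 family list turned from -0.13 to 0.01 with quantile normalization. The cause of these shifts was not tested. Same-numbered deviations correlated at 0.087 between the ΔCRE time points and -0.003 between the WT time points. Between the genotypes they correlated at 0.121 at 6 h and 0.117 at 24 h. These values do not settle whether replicate numbers pair the libraries. A fit with the replicate number as a block gave 2373 higher and 3009 lower genes at 24 h and 20 and 5 differences from WT cells. At an unadjusted p under 0.05 that fit had 669 higher and 593 lower differences, against 488 and 348 in the main fit. Fragment counts are not kept in FPKM, so counting error could not be assessed, and 2 libraries per group limit the precision.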
